A study of Mus musculus with 2 samples.

Results

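The replication-dependent histone genes of the mouse were taken as the protein-coding genes of the GENCODE vM21 annotation whose symbol starts with Hist1h, Hist2h, Hist3h or Hist4h, which gave 67 of 21938 protein-coding genes. The Hist1 cluster held 54 of them on chromosome 13, the Hist2 cluster 10 on chromosome 3, the Hist3 cluster 2 on chromosome 11, and Hist4 a single gene on chromosome 6. By the histone they encode, 18 were H2A genes, 18 H2B, 13 H4, 12 H3 and 6 the linker histone H1. A peak of both replicates lay within 500 bp of the annotated 5′ end of 55 of the 67 genes (82.1%), and the other 12 had a peak in neither.

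DNase-seq maps chromatin that is open to the enzyme DNase I. It was done on hindbrain of B6NCrl mice on postnatal day 0, with males and females pooled, in 1 group of 2 biological replicates. Both are entered under 1 donor but come from separate tissue samples. There is no second condition, so the report describes levels within these libraries. Peaks and hotspots were called per library on mm10, with no pooling of the replicates (number of animals per sample: not given in the sources used here). After peaks outside the numbered and sex chromosomes were left out, replicate 1 held 270757 peaks and replicate 2 held 171790. The read depth behind them is unknown, since the tables hold regions and no reads. Each peak carries the authors' score, a whole number from 1 to 150 whose scale is not stated, and a score percentile below is a peak's rank within its own library. Hindbrain is a mixture of cells, so more cells with an open site and a more open site in each cell cannot be told apart.

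The replication-dependent histones package DNA as it is copied, and their genes are read mainly in S phase of dividing cells. The genes lack introns and sit in clusters, H2A and H2B genes often back to back with a shared promoter. Their mRNAs end in a conserved stem-loop bound by SLBP in place of a poly(A) tail, and NPAT, brought in part by HINFP at H4 genes, drives their transcription in nuclear histone locus bodies. At birth the mouse hindbrain holds dividing cells, among them the granule cell precursors of the cerebellum, beside neurons that have left the cycle.

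The labelled tissue was checked against markers first. All 4 neuron markers (Tubb3, Map2, Snap25, Stmn2), all 4 of the cerebellar granule lineage (Zic1, Pax6, Atoh1, Barhl1) and all 4 of dividing cells (Mki67, Top2a, Pcna, Mcm4) had a peak of both replicates at the 5′ end. None of 4 liver genes (Alb, Apoa1, Apoa2, Ahsg) and none of 4 male germ line genes (Prm1, Prm2, Tnp1, Sycp3) had one in either replicate.

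The promoters of the most open members are shown because the motifs known from histone promoters can be read in them. Capitals mark letters that match, on either strand, TATAAA of the TATA box, or CCAAT, the site of the factor NF-Y, or the octamer ATTTGCAT bound by OCT1 (encoded by Pou2f1), or the H1 box AAACACAA, or GGTCCG, the core of the HINFP site. Sequences are from GRCm38.p6 (mm10), 5′ to 3′. The first spans the 184 bases between the 5′ ends of the divergent pair Hist1h2bf and Hist1h2ad (chr13:23574197-23574380, plus strand). The others are the 200 bases before the 5′ end, on the strand of the gene. They show the H1, H3 and H4 gene with the highest mean percentile and then 2 testis variants that had no peak. These lie at chr13:23622559-23622758 for Hist1h1e (minus), chr13:23562370-23562569 for Hist1h3e (minus), chr13:23698455-23698654 for Hist1h4c (minus), chr13:23695614-23695813 for Hist1h1t (plus) and chr13:23934157-23934356 for Hist1h2ba (minus).
Hist1h2bf/Hist1h2ad: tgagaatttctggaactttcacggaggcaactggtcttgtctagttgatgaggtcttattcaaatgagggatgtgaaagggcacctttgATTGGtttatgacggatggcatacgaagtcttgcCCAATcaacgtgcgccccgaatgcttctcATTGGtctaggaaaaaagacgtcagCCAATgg
Hist1h1e: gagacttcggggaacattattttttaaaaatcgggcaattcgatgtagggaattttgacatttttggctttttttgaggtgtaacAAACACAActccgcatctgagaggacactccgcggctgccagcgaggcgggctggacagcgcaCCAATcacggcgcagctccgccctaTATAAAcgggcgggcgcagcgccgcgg
Hist1h3e: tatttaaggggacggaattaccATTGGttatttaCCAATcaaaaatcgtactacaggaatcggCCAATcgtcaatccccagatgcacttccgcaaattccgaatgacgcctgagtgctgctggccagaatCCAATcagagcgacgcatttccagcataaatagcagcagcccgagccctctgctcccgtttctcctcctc
Hist1h4c: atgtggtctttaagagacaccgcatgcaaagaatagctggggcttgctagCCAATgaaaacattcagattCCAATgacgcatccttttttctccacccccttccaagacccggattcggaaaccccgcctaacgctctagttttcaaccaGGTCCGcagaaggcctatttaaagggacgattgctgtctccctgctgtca
Hist1h1t: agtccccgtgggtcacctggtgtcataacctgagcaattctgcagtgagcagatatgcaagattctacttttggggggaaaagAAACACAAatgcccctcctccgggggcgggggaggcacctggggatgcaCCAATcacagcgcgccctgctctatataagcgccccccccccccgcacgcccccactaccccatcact
Hist1h2ba: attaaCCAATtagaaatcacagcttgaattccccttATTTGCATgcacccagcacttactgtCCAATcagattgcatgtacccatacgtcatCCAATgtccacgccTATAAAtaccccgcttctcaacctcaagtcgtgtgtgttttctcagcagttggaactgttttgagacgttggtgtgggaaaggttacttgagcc

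Histone genes had a peak at the 5′ end more often than protein-coding genes as a whole: 55 of 67 (82.1%), against 60.7% of all protein-coding genes with a peak of both replicates. Taken alone, each replicate had a peak at the same 55 members, against 65.5% of all protein-coding genes in replicate 1 and 61.3% in replicate 2. No member was seen in only 1 replicate. The difference from all genes was not tested, since members share windows and duplicated sequence. The shares use 1 annotated 5′ end per gene, and genes with several transcripts may be open at another start. With every transcript start the members stayed 55, and the share of all genes there was not computed. Hotspots, the broader regions of raised cleavage, gave the same 55 members, against 61.6% of all protein-coding genes. All 55 lay in a hotspot whose −log10 q stood at the cap of 100 in both replicates, so hotspots do not rank them.

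Where a peak was called, its score was that of a usual open promoter. The median of the highest score per gene was 126 in replicate 1 and 114 in replicate 2 for the 55 histone genes, against 129 and 109 for all 13309 protein-coding genes with a peak of both. The median of the mean percentile was 96.33 for the histone genes and 96.27 for all, and 28 of the 55 were above the median of all genes. Replicate 1 scored higher at 54 of the 55 members, all but Hist2h2aa1, but its percentile was higher at only 38. Scores of replicate 1 were also higher over all genes. Over the 55 members the scores of the replicates had a Spearman's rho of 0.89, and 0.89 over the 45 separate start windows. Neighbouring genes share peaks, so this is a description. The percentiles of the replicates differed by a median of 0.84 points, and the SD of the mean percentile over members was 4.19.

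**Figure D1:**
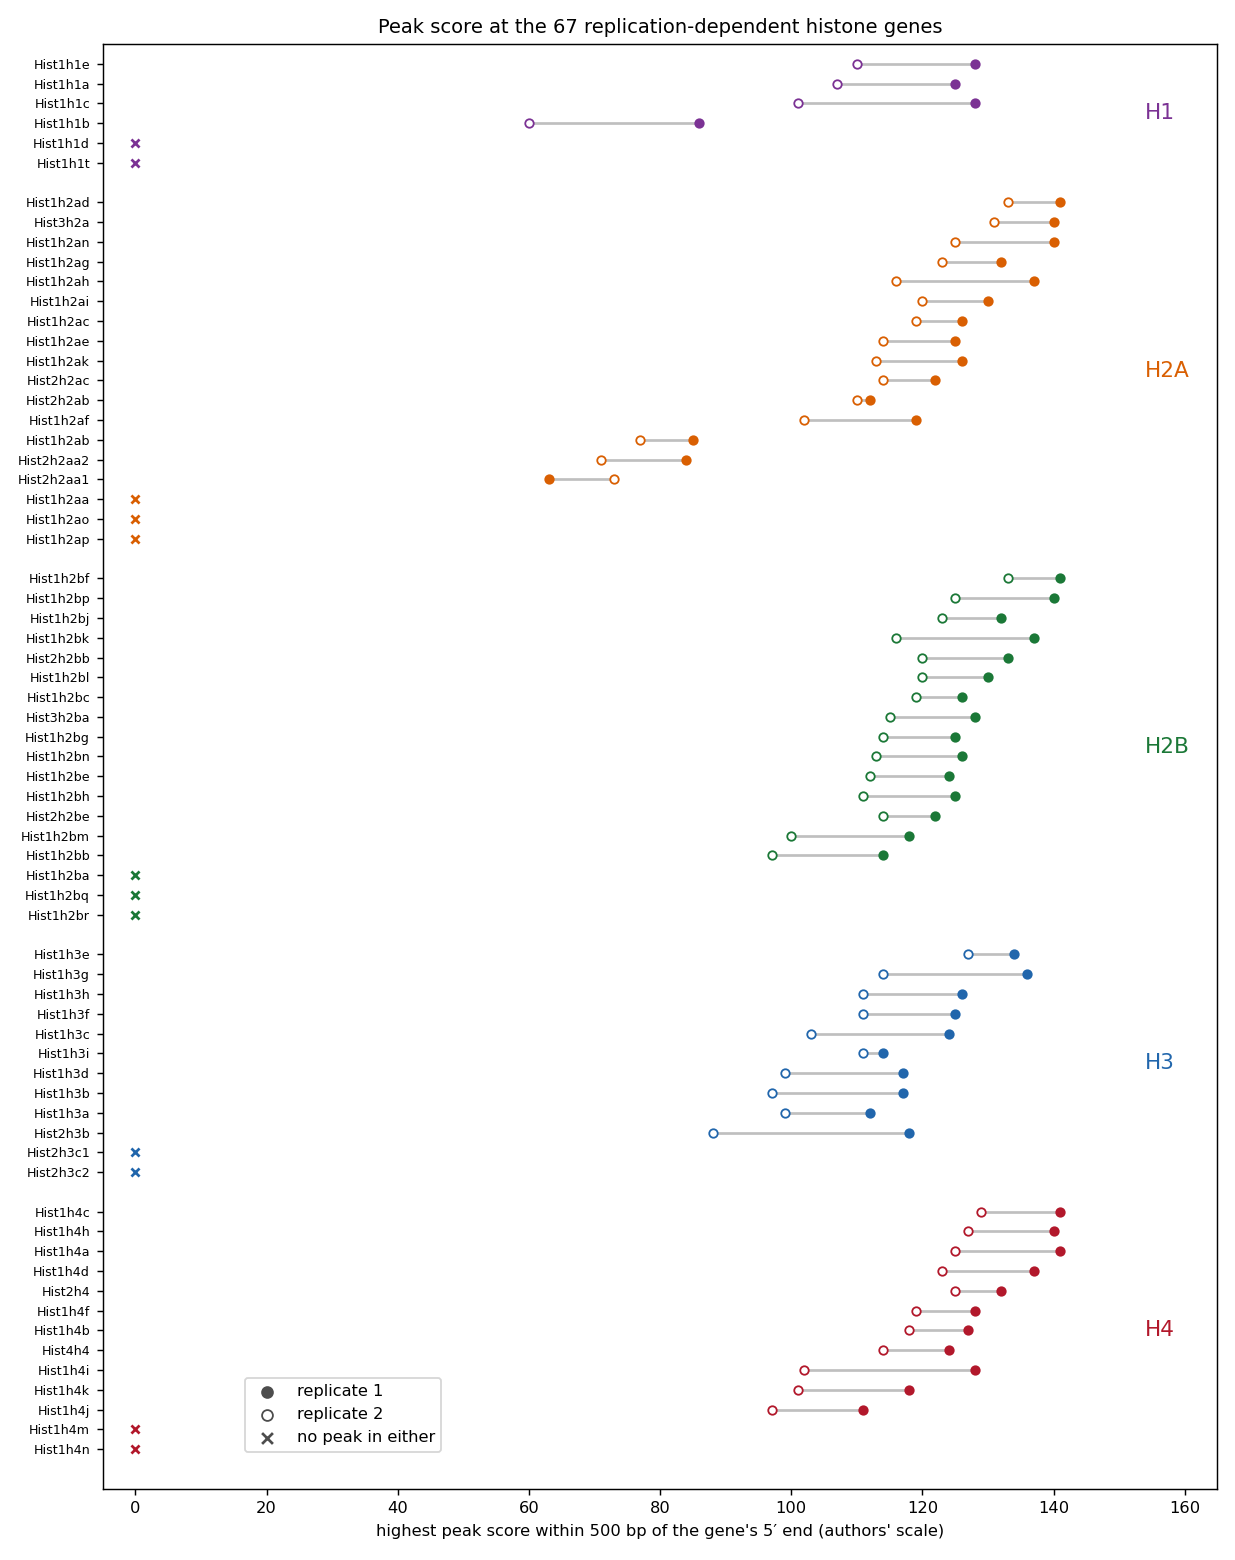
Highest peak score within 500 bp of the 5′ end of each of the 67 histone genes, by histone type, in replicate 1 (filled) and replicate 2 (open). Crosses drawn at 0 are the 12 genes with no peak in either replicate and are not scores. Of the 55 genes with a peak, 51 had a mean percentile of at least 90; Hist1h1b, Hist1h2ab, Hist2h2aa2 and Hist2h2aa1 stand apart on the low side.

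All core histone types were open at a similar share. A peak of both replicates was found at 15 of 18 H2A genes (83.3%), 15 of 18 H2B genes (83.3%), 10 of 12 H3 genes (83.3%) and 11 of 13 H4 genes (84.6%), and at 4 of 6 H1 genes (66.7%), against 60.7% of all protein-coding genes. The share of the few H1 genes lies near that of all genes. It depends on the annotated 5′ end of Hist1h1d, which had no peak there but had one of both replicates at its start codon. The H4 genes had the highest median score in both libraries, 128 in replicate 1 and 119 in replicate 2. The H2A genes had medians of 126 and 114, the H2B genes 126 and 115, the H3 genes 121 and 107, and the H1 genes 126.5 and 104. The lowest type was H3 in replicate 1 and H1 in replicate 2, so the order of the types below H4 did not hold in both. The ranges overlapped throughout: H4 genes ran from 111 to 141 in replicate 1 and H3 genes from 112 to 136.

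The H2A and H2B genes encode the dimer that flanks the tetramer of H3 and H4 in the nucleosome core. The highest mean percentile of any member, 99.26, belonged to Hist1h2ad and Hist1h2bf, which share 1 peak of score 141 in replicate 1 and 133 in replicate 2. In replicate 1 the H4 genes Hist1h4a and Hist1h4c had the same score. Among H2A genes Hist3h2a followed with 140 and 131, Hist1h2an with 140 and 125, and Hist1h2ag with 132 and 123. Among H2B genes Hist1h2bp scored 140 and 125, Hist1h2bj 132 and 123, and Hist1h2bk 137 and 116. Apart from Hist3h2a, these genes lie in shared windows, so Hist1h2an and Hist1h2bp are 1 measurement and Hist1h2ag and Hist1h2bj another. The lowest open H2A genes were Hist2h2aa1, with 63 in replicate 1 and 73 in replicate 2, and Hist2h2aa2, with 84 and 71. Hist1h2ab had 85 and 77, and with it the other 9 open H2A genes ran from 85 to 137 in replicate 1 and from 77 to 120 in replicate 2. The lowest open H2B genes, Hist1h2bb with 114 and 97 and Hist1h2bm with 118 and 100, were far above these, and the other 9 ran from 122 to 133 and from 111 to 120.

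Among the H3 genes, which encode a core histone with the tail most studied for its modifications, Hist1h3e led with 134 in replicate 1 and 127 in replicate 2. Hist1h3g scored 136 and 114, Hist1h3h 126 and 111, and Hist1h3f 125 and 111. The last value is of the peak shared with Hist1h2bh, whose centre lies outside the window of Hist1h3f. The peak of Hist1h3f near its own start codon scored 121 and 97. The lowest open H3 genes were Hist2h3b with 118 and 88 and Hist1h3a with 112 and 99, and the other 4 lay between 114 and 124 and between 97 and 111. H4 genes encode the partner of H3 in the core tetramer. Hist1h4c scored 141 and 129, Hist1h4h 140 and 127, Hist1h4a 141 and 125, and Hist1h4d 137 and 123. The lowest open H4 genes were Hist1h4j with 111 and 97 and Hist1h4k with 118 and 101, and the other 5 lay between 124 and 132 and between 102 and 125.

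Linker histone H1 binds the DNA between nucleosomes. Hist1h1e scored 128 in replicate 1 and 110 in replicate 2, Hist1h1a 125 and 107, and Hist1h1c 128 and 101. Hist1h1b was lower in both libraries, with 86 and 60 (mean percentile 80.5). Hist1h1d and Hist1h1t had no peak at the annotated 5′ end.

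All clusters held open members. In Hist1, 44 of 54 genes (81.5%) had a peak of both replicates, and in Hist2 8 of 10 (80.0%), against 60.7% of all protein-coding genes. Both genes of Hist3 and the gene of Hist4 had one. Hist3h2ba scored 128 and 115, and Hist4h4 scored 124 in replicate 1 and 114 in replicate 2. On chromosome 13 the Hist1 genes fell into 2 blocks, split where neighbours were over 200000 bp apart. The block at chr13:23531050-23934851 had 27 open of 31 genes and the block at chr13:21715763-22043676 17 open of 23. The 6 genes without a peak in the block of 23, and the 2 in Hist2, lie in duplicated sequence described below. For these, a closed start and an unmapped one cannot be told apart, so the shares do not compare openness between blocks. The 4 without a peak in the block of 31 do not lie in such sequence. In the block of 23, all 13 genes with under 50% repeated sequence were open, against 23 of 27 in the block of 31. Median scores were 126 and 114 in the block of 31 genes, 128 and 113 in the block of 23, and 120 and 112 in Hist2.

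Open divergent pairs of H2A and H2B genes shared their open site. The windows of 500 bp on either side of the 67 starts merged into 54, of which 45 held a peak of both replicates, and 13 of the 54 were shared by 2 genes. All 13 were divergent pairs, transcribed away from each other: 12 joined an H2A and an H2B gene and 1 joined Hist1h2bh with Hist1h3f. In 10 of the 13 both genes had a peak of both replicates, and in all 10 the best peak of the genes was the same peak in each replicate, centred between the 5′ ends. Scores of these 10 ran from 122 to 141 in replicate 1 and from 111 to 133 in replicate 2.

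The 5′ ends of the H2A and H2B pairs were 175 to 305 bases apart, about the width of a peak or 2. In the 9 open H2A and H2B pairs the centre of the best peak was at most 50.5 bases from the midpoint in replicate 1 and 41.5 in replicate 2. In Hist1h2bh and Hist1h3f, 659 bases apart, the best peak lay 212 bases from the midpoint towards Hist1h2bh in both replicates. Its centre lay outside the window of Hist1h3f, so this pair shares a peak only at the edge of that window. Hist1h3f has a peak of its own nearer its start codon, with 121 in replicate 1 and 97 in replicate 2. The 3 pairs with no peak were Hist1h2bq with Hist1h2ao, Hist1h2ap with Hist1h2br, and Hist1h2ba with Hist1h2aa.

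**Figure D2:**
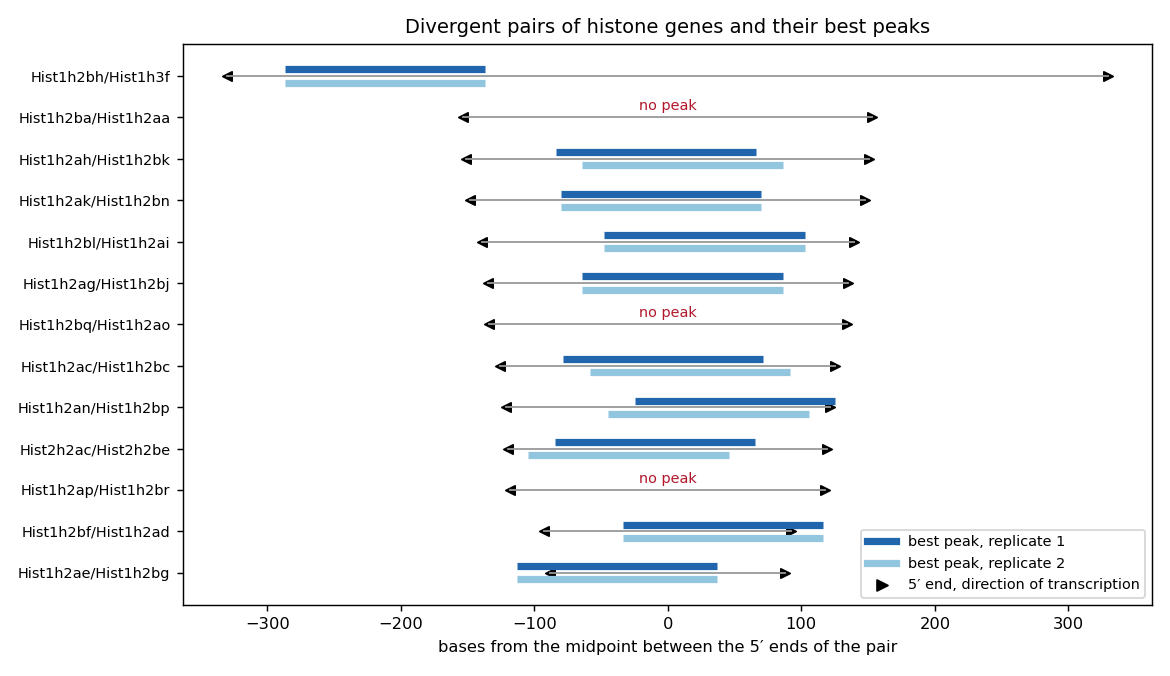
Best peaks (bars of 150 bp) at the 13 divergent pairs of histone genes, by distance in bases from the midpoint between the 5′ ends (arrowheads point in the direction of transcription), in replicate 1 and replicate 2. In 9 of the 12 H2A and H2B pairs 1 peak lies over the middle of the gap in both replicates, and 3 pairs have none.

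The 11 H2A and H2B genes outside these pairs all had a peak of both replicates. Their median score was 118 in replicate 1 and 102 in replicate 2, against 128 and 117.5 for the 10 open pairs, with overlapping ranges (63 to 140 and 71 to 131 outside the pairs). Several of them have another partner. Hist3h2a starts at the same base as the protein-coding gene Trim17, on the same strand. Hist1h2bb starts 234 bases from the pseudogene Gm11336, and Hist2h2ab starts 155 bases from Bola1, a gene of iron-sulfur cluster assembly, both in divergent order. Hist3h2a also starts 172 bases from the pseudogene Hist3h2bb-ps, and Hist1h2bm 235 bases from the pseudogene Hist1h2aj, likewise divergent. Peaks there could belong to either partner and cannot be told apart: Hist3h2bb-ps had 140 and 131 and Hist1h2aj 118 and 100, the scores of their partners.

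Peaks lay just before the coding part, at a distance that differed between types. Measured from the start codon, the median centre of the best peak was 153 bases before it in replicate 1 and 152 in replicate 2 for H2A genes. It was 150 and 148 bases before for H2B genes, 87 and 81 for H4 genes, 86.5 and 102.5 for H3 genes and 56 and 53 for H1 genes. Of the 56 members with a peak within 500 bp of the start codon, all 56 had the centre of the best one before it in both replicates. In that window 35.7% of all protein-coding genes had a peak of both, at the start codon of each gene's shortest annotated coding part. That start codon may lie far from the promoter in other genes, so this share is not a like measure for the members. In the divergent pairs the distance of H2A and H2B genes is that to the middle of the shared gap. The annotated 5′ end of 11 members is the start codon itself, so distances from the 5′ end are less sure for them.

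The short coding parts were mostly free of peak centres. A peak centre of both replicates lay in the coding part of 8 of the 56 members, against 41.8% of 887 genes. The 887 are all genes whose shortest annotated coding part is unspliced and that have a peak at its start codon. Longer annotated coding parts of the same genes may be spliced, so the 887 need not lack introns. Coding parts had a median of 388.5 bases in these members and 468 in the 887 genes. The 8 were Hist2h2ab, Hist2h2ac, Hist2h2be, Hist3h2a, Hist1h2bm, Hist1h2ak, Hist1h4f and Hist1h1d, named after their values were seen. In the 500 bases after the coding part, 33 of the 56 had a peak centre of both replicates, against 26.7% of the 887 genes. Types differed here: 10 of 11 H4 genes, 4 of 5 H1, 9 of 15 H2A and 9 of 15 H2B, but 1 of 10 H3 genes (Hist1h3i). With genes left out that have another annotated start nearby, the counts were 8 of 9 H4, 3 of 4 H1, 9 of 14 H2B and 1 of 8 H3. Among the 887 genes the count was then 177 of 750. No H2A gene could be counted so, since each of the 15 has another start nearby.

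**Figure D3:**
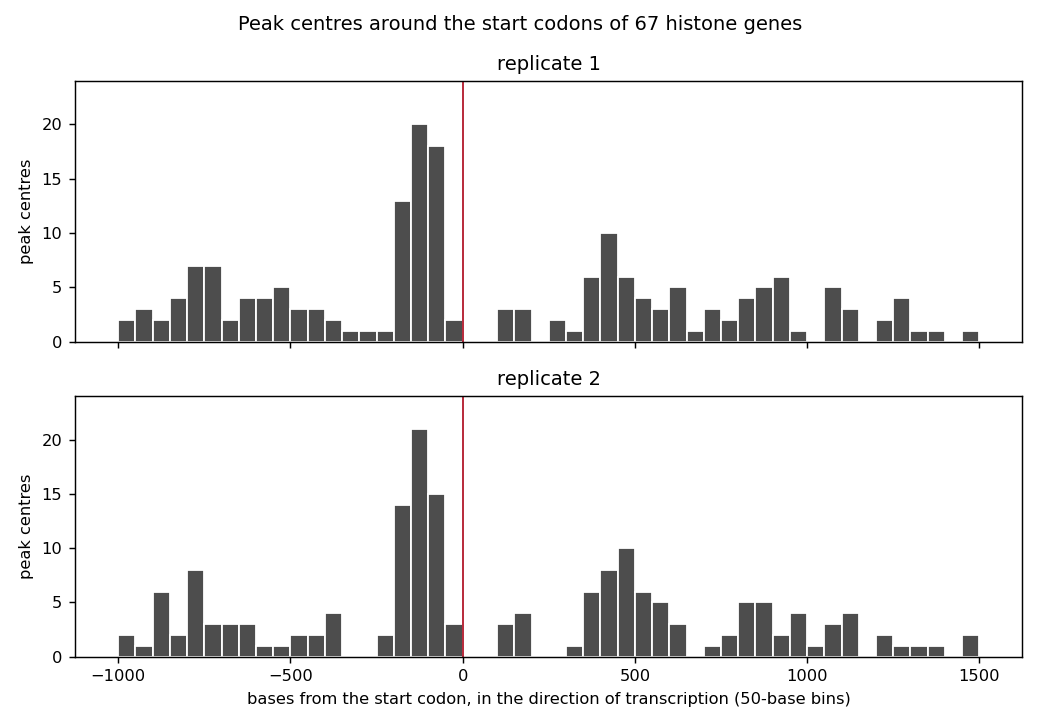
Number of peak centres in bins of 50 bases around the start codon (red line) of the 67 histone genes, in the direction of transcription, in replicate 1 and replicate 2; a peak near several genes counts at each. The tallest bins lie between 200 and 50 bases before the start codon (51 of 186 centres shown in replicate 1, 50 of 173 in replicate 2), the first 100 bases after it hold none, and a second group follows past the coding part.

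Of the 12 members without a peak, 8 lie in duplicated sequence. Each window was cut into words of 36 bases, and a word was called repeated where it occurs elsewhere in the genome on either strand. In Hist2h3c1, Hist2h3c2, Hist1h2bq, Hist1h2ao, Hist1h2ap, Hist1h2br, Hist1h4m and Hist1h4n, 95.8% to 100% of words were repeated. Their windows were 94.2% to 99.6% identical to that of another member, and the 100 bases before Hist1h4m and Hist1h4n did not differ at a single base. Before Hist2h3c1 and Hist2h3c2 63 of 100 bases differed when compared in place, with no alignment; their annotated 5′ ends lie 201 and 186 bases before the start codon. Reads from such copies have no single place in the genome. Their treatment in mapping was not given in the sources used here, so a closed start and an unmapped one cannot be told apart for these 8.

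Members with at least 95% repeated words had no peak, while those with less were mostly open. None of the 8 members with at least 95% repeated words had a peak, against 0.156% of all protein-coding genes with that share. All 10 members with 50% to under 95% had one, against 9.98% of all such genes, and 45 of 49 under 50%, against 64.6% of all such genes. The thresholds were chosen after the values were seen. The best peaks themselves sat on unique sequence: 51 of 54 that could be measured held no repeated word in either replicate. The exceptions were Hist1h4j, Hist1h4k and Hist1h4i, with at most 16.5%. In the members with a peak the median repeated share was 0.65% before the 5′ end and 57.7% after it, where the coding part lies. The repeated share thus moves with the low number of peak centres in coding parts, and its part in that was not tested. Hist2h2aa1 and Hist2h2aa2, a pair of like genes with 66.1% and 72.2% repeated words, had their best peaks far out. For Hist2h2aa1 the centre lay 307 bases before the 5′ end in both replicates, and for Hist2h2aa2 314 bases before it in replicate 1 and 334 in replicate 2.

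**Figure D4:**
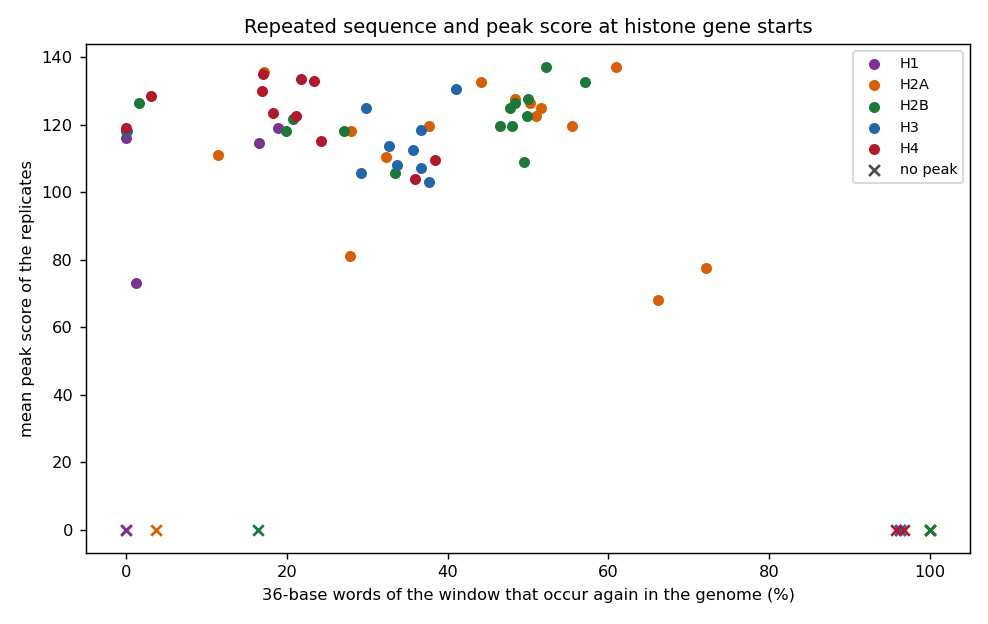
Mean peak score of the replicates against the percentage of 36-base words of the start window that occur again in the genome, for 67 histone genes coloured by type. The 8 crosses at the right (no peak, drawn at 0; some overlap) have at least 95.8% repeated words, and 4 further genes without a peak lie below 20% on the left.

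The 4 others without a peak do not lie in duplicated sequence. Hist1h1t, Hist1h2aa and Hist1h2ba, with 0%, 3.73% and 16.5% repeated words, encode the H1t, TH2A and TH2B variants of male germ cells. None had a peak in either replicate at the 5′ end or the start codon, or a hotspot at the 5′ end. The 200 bases before Hist1h1t nevertheless hold an H1 box and a CCAAT, in the same order as in the open Hist1h1e. Those before Hist1h2ba hold TATAAA, an octamer and 3 CCAAT matches. Hist1h1t lies among open neighbours: Hist1h4c, the most open H4 gene, starts 2640 bases from it. The fourth, Hist1h1d, has an annotated 5′ end 1828 bases before its start codon. Its RefSeq 5′ end lies 1770 bases further downstream, and within 500 bp of the start codon it had 110 in replicate 1 and 78 in replicate 2. Measured at start codons, 56 of 67 members had a peak of both. Hist1h2be is the opposite case: its annotated 5′ end lies 35168 bases upstream, beside Hist1h1e, so its score of 124 and 112 is not from its coding part. At the start codon it had 120 and 106.

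Sequence features of the promoters followed the histone types. In the 250 bases before to 50 after the 5′ end, on both strands, CCAAT was found in 56 of 67 members (83.6%), against 39.0% of all protein-coding genes. It was found in all 18 H2A and all 18 H2B genes, 11 of 12 H3 and 5 of 6 H1, but in 4 of 13 H4 genes. The H3 and H1 genes without CCAAT were Hist1h3f and Hist1h1d, whose annotated 5′ ends lie 433 and 1828 bases before the start codon. Hist1h2be was searched at an annotated 5′ end 35168 bases from its start codon. TATAAA was found in 37 members (55.2%), against 12.6% of all protein-coding genes. The octamer was in 15 members (22.4%), against 1.57%: 8 H2B genes and 7 H2A genes. Both genes of a divergent pair search much of the same gap on both strands, so 1 match can count for both. In the 100 bases before to 50 after the 5′ end the octamer was in 6 H2B genes and 0 H2A genes. GGTCCG was in 15 members (22.4%), against 9.60%, with 12 of them among the 13 H4 genes. The H1 box was in 6 members (8.96%), against 1.59%, and 4 of these were H1 genes. CCAAT was in 47 of the 55 members with a peak and 9 of the 12 without, and TATAAA in 32 and 5. Of the 12, 8 may be unmapped and not closed, and Hist1h1d has a peak at its start codon. These counts therefore do not compare open with closed starts. The median ratio of observed to expected CpG in the windows was 0.88 for members and 0.55 for all protein-coding genes, while GC content was 53.7% and 54.7%.

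The other end of the genes carries the histone stem-loop, shown here because it marks these mRNAs as replication-dependent. A 16-base match to its consensus lay within 200 bases after the coding part of 65 of 67 members, all but Hist2h2be and Hist1h2an, and of 6 other protein-coding genes. Capitals mark the 4-base loop between the 6-base arms of the stem.
Hist1h2bf: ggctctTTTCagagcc
Hist1h3e: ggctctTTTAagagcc
Hist1h4c: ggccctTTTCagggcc
Hist1h4a: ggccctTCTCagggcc
The form in Hist1h2bf was found in 41 members of the H1, H2A, H2B and H3 types, and that in Hist1h3e in 9 members of the same types. The form in Hist1h4c was found in 8 members, all H4 genes, and that in Hist1h4a in Hist1h4a alone. Of the germ line variants, Hist1h1t and Hist1h2ba carry the form of Hist1h3e, and Hist1h2aa that of Hist1h2bf. H2afx, a replication-independent variant by the list used here whose gene also yields a stem-loop mRNA, was among the 6 others.

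Away from the starts, open regions were denser in 1 of the 2 Hist1 blocks. Regions with a peak of both replicates and over 500 bp from every annotated 5′ end numbered 40 in the block of 23 genes, or 13.6 per 100 kb of such sequence. There were 28 in the block of 31 genes (7.71 per 100 kb), 5 in Hist2 (12.6 per 100 kb), 4 in Hist3 (69.0 per 100 kb) and 0 at Hist4. Over the genome there were 4.32 per 100 kb. Hist2 and Hist3 hold only 39.8 and 5.80 kb of such sequence, and no tRNA genes. Of the 40, 29 lay within 500 bp of a tRNA gene of the RefSeq annotation, as did 0.239% of such regions over the genome. The regions need not lie between genes: 29 of all 77 overlap an annotated gene, coding or not, and 18 of these a histone gene as annotated. That holds for 18 of the 28 in the block of 31 genes (14 in a histone gene), for all 5 in Hist2 (4 in a histone gene), for 6 of the 40 in the block of 23 genes (0 in a histone gene) and for none of the 4 in Hist3. The block of 23 genes holds 31 tRNA genes and the block of 31 genes none. Without the 29, the block of 23 genes had 11 regions, 3.73 per 100 kb. The bases near the tRNA genes stayed in that length, so 3.73 is an underestimate and not comparable with the 4.32 of the genome.

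A peak of both replicates lay within 500 bp of 24 of the 31 tRNA genes, against 63.8% of all 403 RefSeq tRNA genes. Their median score was 67 in replicate 1, with 56.5 in replicate 2, and scores ran up to 121 and 105 at the isoleucine tRNA gene n-TItat14. None of the regions over 500 bp from every annotated 5′ end lay within 500 bp of n-TItat14. Its score may therefore be that of another annotated start, which was not tested. Of the 7 without, 4 had a peak in neither replicate. The tRNA genes fill the stretch between the duplicated genes around Hist1h4n and the pair of Hist1h2ah with Hist1h2bk. Over all 77 regions the median score was 63 in replicate 1 and 47 in replicate 2. It was 60.5 and 46 in the 48 outside genes and 79 and 55 in the 29 that overlap one. The median mean percentile of the 77 was 66.4, below the 96.33 of the start windows. The highest lay 700 bases from the 5′ end of Hist1h4h with 138 in replicate 1 and 121 in replicate 2. Others were the start-codon peaks of Hist1h1d and Hist1h2be described above, and 24 of the 77 lay within 2 kb of a member's 5′ end.

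**Figure D5:**
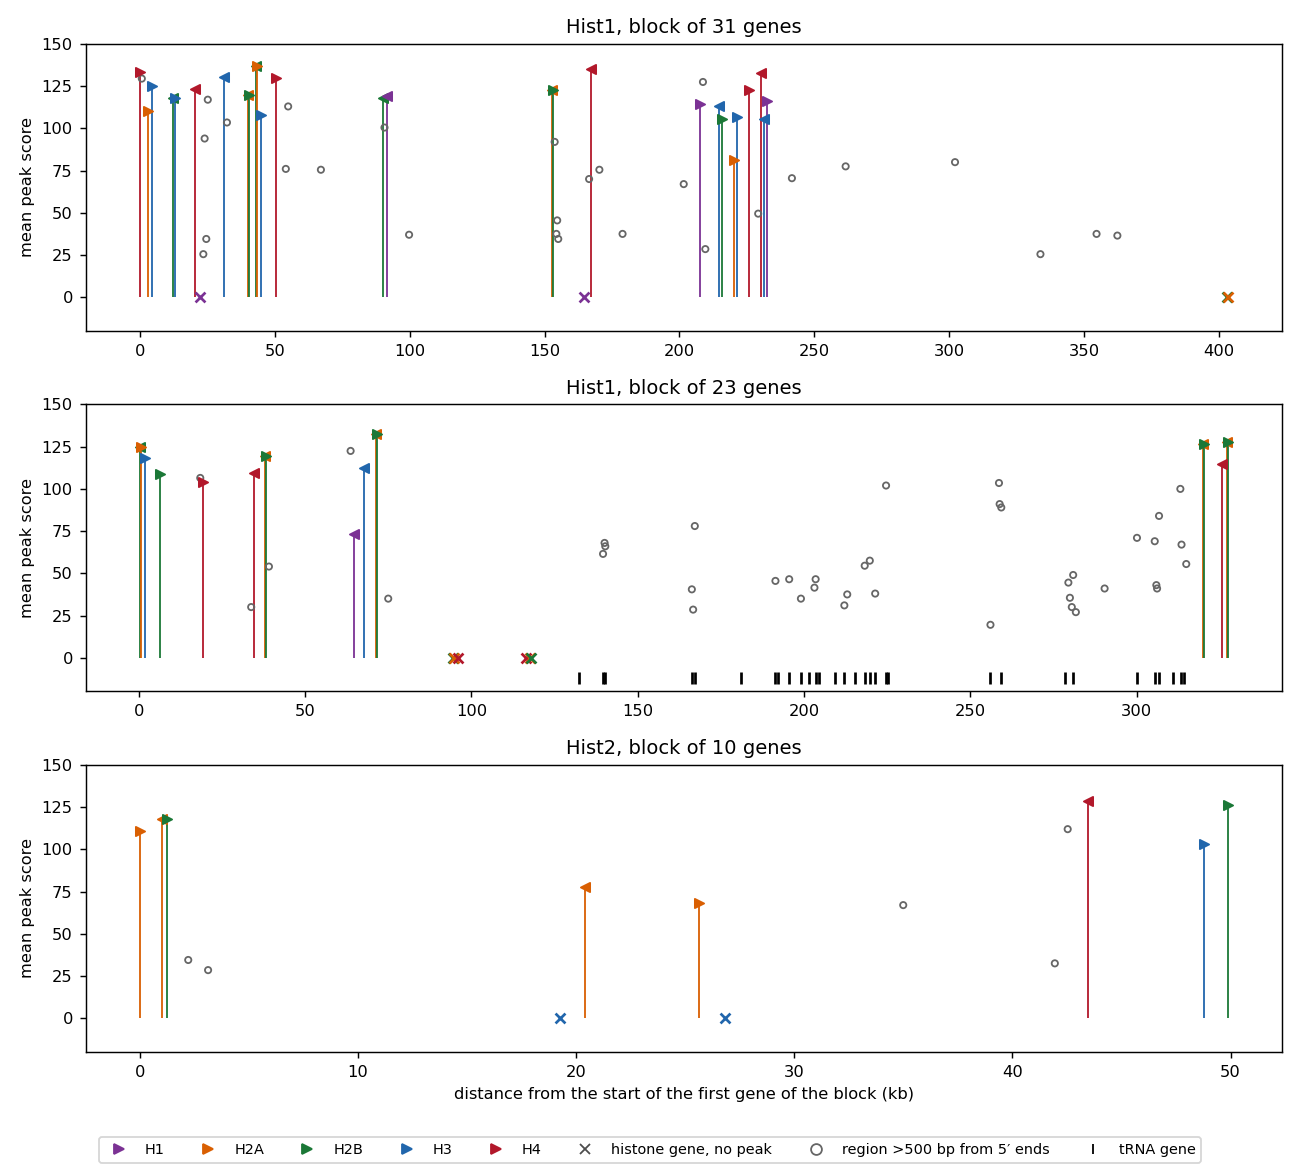
Mean peak score of the replicates along the 2 Hist1 blocks and the Hist2 cluster, by distance in kb from the start of the first gene. Arrowheads are histone genes, coloured by type and pointing in the direction of transcription; crosses at 0 are histone genes without a peak; circles are regions over 500 bp from every 5′ end, inside or outside genes; ticks below are tRNA genes, all 31 of them in the block of 23 genes.

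Genes that act with or beside these histones were open at most 5′ ends. Of 11 replication-independent histone genes, 9 had a peak of both replicates, where 60.7% of all protein-coding genes had one. The highest were H2afv with 146 in replicate 1 and 137 in replicate 2 and H2afz with 142 and 137, which encode forms of H2A.Z, then H2afx with 144 and 130 and H3f3a, for H3.3, with 140 and 124. H3f3b, the second H3.3 gene, had none at its annotated 5′ end, and H2afy had 45 in replicate 1 only. Of 19 genes for transcription and 3′ processing of histone mRNA, 16 had one. Yy1 scored 147 and 143, Nfya of NF-Y 146 and 142, Sympk of the cleavage complex 145 and 142, and Casp8ap2 of histone locus bodies 145 and 140. Npat scored 141 and 140, Hinfp 145 and 137 and Slbp 142 and 128. The weakest of the 16, named after their values were seen, were Eri1 with 49 and 40 and Coil with 51 and 38, at mean percentiles of 54.7 and 54.2. Nfyc had 27 in replicate 1 only, and Zfp473 and the nuclease gene Cpsf3 had none at the annotated 5′ end. All 8 histone chaperone genes had one, led by Hjurp with 150 and 147, Daxx with 144 and 140, Asf1b with 145 and 137 and Asf1a with 145 and 128. The median mean percentile of the open genes was 97.5, 98.6 and 99.0 in the 3 lists, against 96.33 for the 55 replication-dependent histone genes and 96.27 for all protein-coding genes. With the start of every annotated transcript counted, 38 genes, all those of the 3 lists, had a peak of both, against 33 at gene 5′ ends. H3f3b, H2afy, Nfyc, Zfp473 and Cpsf3 thus had one at another annotated start. The share of all protein-coding genes at every transcript start was not computed.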

How the data were processed

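The authors deposited, for each library, a table of peaks with a score per peak and a table of hotspots with a −log10 q per region. Per the labels and the deposited file lists, both were called per library on mm10 and not pooled. Aligner, caller and threshold: not given in the sources used here. The deposited score, 1 to 150 with empty p and q fields, was used only to describe, rank or filter peaks within a library. Depth is unknown, so no interval or floor can be given.

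Gene 5′ ends came from GENCODE vM21, and sequence, tRNA genes and other 5′ ends from GRCm38.p6 and RefSeq, which matched all 67 members. A gene counted where a peak of each replicate overlapped the window of 500 bp on either side of its 5′ end. Percentiles are ranks among all peaks of a library. Repeated words, of 36 bases, were counted over the assembled chromosomes and unplaced sequence. Histone mRNA stem-loops were searched within 200 bases after the coding part as a pair of guanines, 3 pyrimidines, a T-rich loop with 1 or 2 variable bases, 3 purines and a pair of cytosines. Scripts (Python 3.11.15, numpy 2.4.6, pandas 2.3.3) were tested on simulated data.

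The members, lists and tests were chosen with earlier results of these data known. With 1 group there is no contrast, and no p-value is given. Values were named for the 4 highest and 2 lowest open members of each type, all members without a peak, the germ line variants, small clusters, and, in other lists, the 4 highest and those without a peak of both; Npat, Hinfp and Slbp were added for their roles. Start-codon windows, RefSeq 5′ ends, repeat classes, peaks after the coding part and tRNA genes were added after seeing the data.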

Additional observations from a re-analysis of the deposited data

How the results depend on the processing

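Of 194 values under other settings, 186 stayed within 1.5 times the main count or, for the percentile, within 0.325 points, the SD of the replicates' medians. The percentiles without 1 replicate are those medians and could hardly fail this. Gene counts cannot fall in wider windows, with every transcript start or without 1 replicate, and 55 of 67 members cannot rise 1.5 times. The counts by cluster and type are parts of the same 55, so the 186 are not separate checks. The 55 members stayed 55 with hotspots, with the stronger part of each list, with lists of equal length, with peaks that overlap between replicates, with every transcript start, in windows of 1000 bp and without either replicate; windows of 250 bp gave 53 members and 9 divergent pairs. Start codons and RefSeq 5′ ends, added after seeing the data, gave 56. The number of members is given, not which ones.

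The exceptions follow. The median percentile was 92.8 in the stronger part of each list, 82.8 with hotspots and 95.3 with lists of equal length, each on a scale of its own, and the median raw score was 119.5. It was 96.2 without replicate 1 and 96.6 without replicate 2. The density of regions away from 5′ ends, 10.9 per 100 kb over all blocks, was 6.09 with the stronger part of each list. Other histone and pathway genes with a peak fell to 21 at the start codons of their shortest annotated coding parts, against 33 at 5′ ends. With every transcript start they numbered 38, within 1.5 times the main count. In the 100 bases before to 50 after the 5′ end the octamer was in 6 members, against 15 in the longer stretch, and the H1 box in 0, against 6. The 6 with the octamer there were all H2B genes. No paired analysis was possible because the study has 1 group. Unknown depth, 2 replicates and an unstated score scale limit all values, and 8 members have at least 95% repeated words.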
